A study of Brassica napus with 9 samples.

Results

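The 54 genes described here rose in drought-stressed rapeseed leaves. In group means of the deposited values on a log2 scale, they did not move back toward the well-watered level when fullerol was applied. They were taken from the 101040 genes with a Bna identifier, the gene models of the *Brassica napus* genome, by a rule with 4 conditions. The mean level, in FPKM (fragments per kilobase of gene length, scaled to the library total), had to be at least 1 in well-watered plants and at least 5 under drought, and the lowest drought library had to be at least 3 times the highest well-watered library. These 3 conditions held for 370 genes, the drought-raised genes. The fourth condition used a return share, the difference on the log2(FPKM + 1) scale between drought with fullerol and drought, divided by that between well-watered and drought. The share is 1 for a complete return and 0 for none, and 54 of the 370 genes (14.6%) had a share of 0 or less. That percentage ran from 9.73% to 23.0% when 1 library was left out. The other 316 are the set they are compared with.

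RNA-seq was run on the third leaf of seedlings of the Zhongshuang 11 genotype, with 3 biological replicates in each of 3 groups and 1 library per replicate. Check plants (CK) were kept at 80% of field capacity and received distilled water on the leaves. Drought plants (D) were let dry to 30% of field capacity and also received distilled water. Drought plants with fullerol (D + F) went through the same soil drying and received 100 mg/L of fullerol, a water-soluble hydroxylated fullerene, on the leaves. No group with fullerol and full watering was part of the 9 libraries, so a difference between D + F and D cannot be told apart from an effect fullerol has without drought.

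A leaf that loses water closes its stomata, accumulates abscisic acid and switches on genes for protective proteins, compatible solutes, transporters and the regulators of these. Many such genes fall again when the leaf regains water. Rapeseed joins the A genome of *B. rapa* and the C genome of *B. oleracea*, so that most genes have a close copy in the other subgenome. The values of such copies are uncertain where reads matched both, since the paper does not say how these reads were counted.

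The deposited values allowed whole reads to be solved, with library totals of 21939148 to 26042002 read pairs. The summed reads of the 54 genes made up 0.0315% to 0.0464% of a CK library, 0.517% to 0.703% of a D library and 0.691% to 0.775% of a D + F library. The single gene BnaA03g13140D gave 26.9% to 60.8% of these reads in the D and D + F libraries. In leaf RNA, more RNA per cell and more cells of a type cannot be told apart. Whether the libraries hold leaf RNA was not checked, because the sources used here pair no leaf marker with an identifier. The rule used the means of all 3 groups, so the differences below describe how the genes were chosen and none is a test of a change in them.

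Replicate 1 of D + F stood apart from the other D + F replicates in these genes. It was the lowest D + F library in 47 of the 54 genes (87.0%), against 56.3% of the other drought-raised genes and 49.6% of the 50626 genes tested. Measured against the mean of the D libraries, the median of the 54 genes was -0.33 in D + F 1, 0.45 in D + F 2 and 0.65 in D + F 3 on the log2 scale. D + F 1 was at or above the mean of D in 19 of the 54 genes, D + F 2 in 50 and D + F 3 in 49. By these medians, the means by which the genes were selected joined 1 library below D with a pair of libraries above it. This did not hold in every gene, as all 3 D + F libraries were at or above the mean of D in 13 of the 54. Over all genes tested the same medians were 0.07, 0.12 and 0.24, and over the other drought-raised genes they were -0.99, -0.49 and -0.66, so that D + F 1 was the lowest of the 3 medians in each set. Its total of 22809167 read pairs lay within the range of the other libraries, and what set it apart was not tested.

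**Figure D1:**
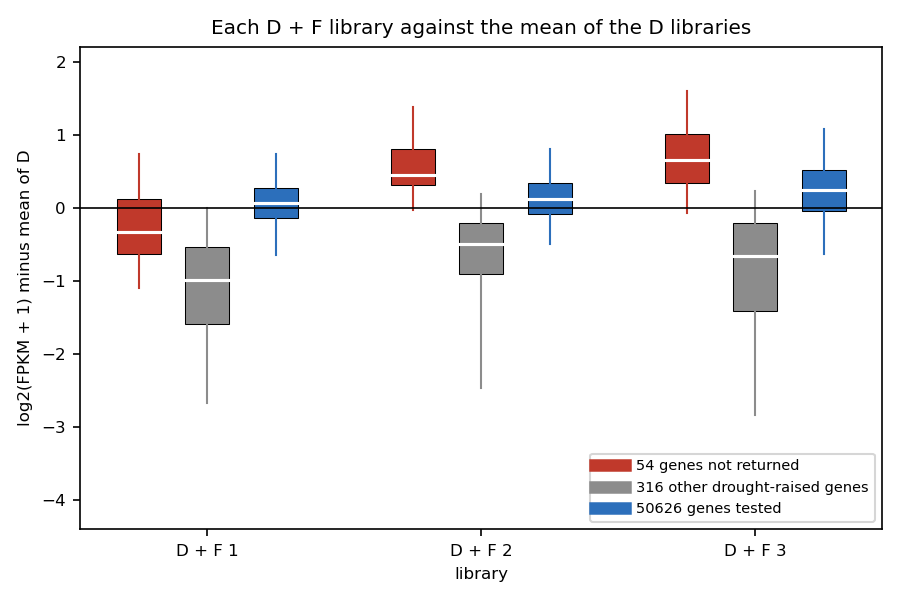
Difference on the log2(FPKM + 1) scale between each D + F library and the mean of the 3 D libraries. Boxes span the quartiles with a white line at the median, and thin lines span the 5th to the 95th percentile over genes. The median of the 54 genes was -0.33 in D + F 1 and 0.45 and 0.65 in the other libraries, while it was below 0 in all 3 libraries for the 316 other drought-raised genes.

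The rise under drought was large in most of the 54 genes. On the log2(FPKM + 1) scale, D minus CK ranged from 1.49 to 8.13 with a median of 2.75, close to the median of 2.75 in the other drought-raised genes. The ratio of mean FPKM between D and CK had a median of 8.57, reached 10 in 23 genes and 50 in 4, and the mean FPKM in D ran from 5.10 to 8460 with a median of 35.2. All 54 genes were called higher in D vs. CK by limma at an adjusted p under 0.05, as were 12.3% of all genes tested, and the libraries of the groups did not overlap in any of the 54, as they did not in 19.4% of all genes tested. In D + F vs. CK all 54 were also called higher, against 8.9% of all genes tested, and 274 of the 316 other drought-raised genes were. As the rule compared these same libraries, nothing is read from these counts.

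The difference between D + F and D was small by comparison. It ranged from 0.01 to 1.26 on the log2 scale with a median of 0.20, against a median of 0.14 over all genes tested and of -0.64 in the other drought-raised genes. In 40 of the 54 genes it was below the SD of the 3 D + F libraries on the same scale, in 29 it was below the SD of the 3 D libraries, in 14 it was under 0.1 and in 15 it was 0.5 or more. None of the 54 genes was called higher in D + F vs. D by limma, where 0.808% of all genes tested were, and the smallest adjusted p among them was 0.108. An unadjusted p under 0.05 was found for 9 of them (16.7%, against 14.1% of all genes tested), and limma's voom on the solved reads called 0 and gave 10 (18.5%, against 14.1%). Without D + F 1 the median difference was 0.56, 26 genes had an unadjusted p under 0.05 (48.1%, against 18.9% of all genes tested), none was called, and the smallest adjusted p was 0.0503. The remaining D + F libraries also served to choose the genes, so nothing is read from this count.

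**Figure D2:**
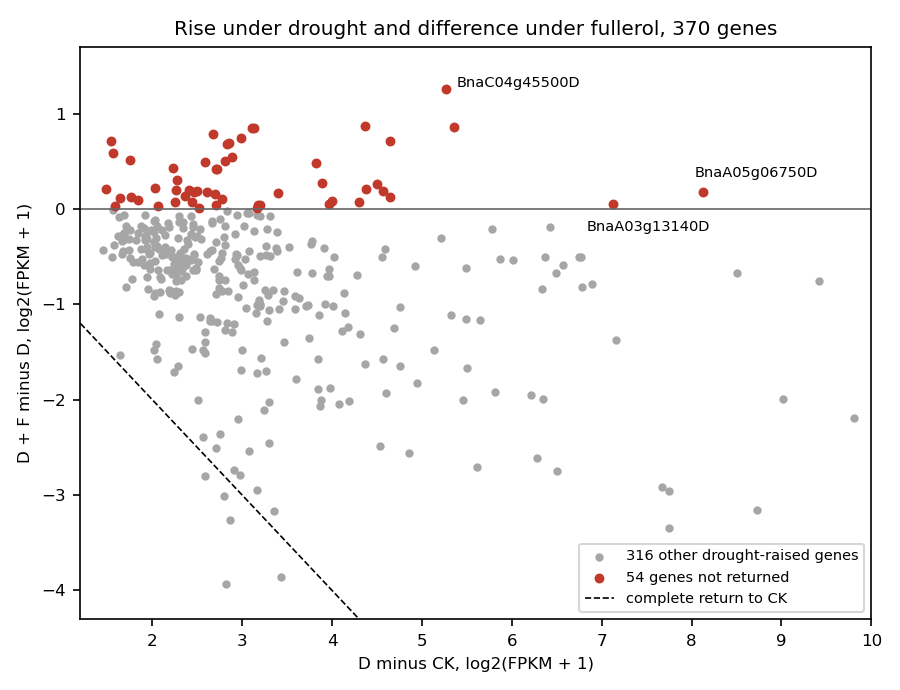
D minus CK (x axis) and D + F minus D (y axis) for the 370 drought-raised genes, both as differences of group means on the log2(FPKM + 1) scale. The 54 genes in red lie at or above 0 by the rule, most of them within 0.5 of it, and the dashed line marks a complete return to CK.

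Among the 54 genes, BnaA03g13140D was the most abundant transcript under drought. Its FPKM was 29.9, 35.3 and 182 in CK, 10335, 9036 and 6008 under D and 14153, 7923 and 5582 under D + F. Mean levels were 82.4 ± 86.2, 8459.6 ± 2220.3 and 9219 ± 4429.8 (SD, n = 3), so the CK libraries differed among themselves by several fold and all lay far below both drought groups. D + F 1 was its highest library and D + F 3 its lowest drought-treated library, and D + F exceeded D by 0.05 on the log2 scale, against an SD of 0.68 among the D + F libraries.

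BnaCnng42980D, a gene on the C subgenome with the same coding length of 333 bases, had FPKM of 159.8, 77.8 and 133 in CK, 902, 1314 and 513 under D and 2473, 1417 and 722 under D + F. It shared the order of the D + F libraries, highest in replicate 1 and lowest in replicate 3, with BnaA03g13140D, which is on the A subgenome. Without sequences it could not be determined whether these are copies of each other that share reads. The rise in BnaCnng42980D was 2.83 on the log2 scale against 7.13 in BnaA03g13140D, from a CK mean of 124 ± 41.8 FPKM (SD, n = 3).

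BnaA05g06750D showed the largest rise of the 54 genes. Its FPKM was 1.57, 1.44 and 0.909 in CK, 473, 749 and 741 under D and 633, 790.2 and 761 under D + F, from 1.31 ± 0.35 to 654 ± 157 and 728 ± 83.8 (SD, n = 3). The CK values rested on 7 to 13 reads per library and the D values on 3931 to 6071, and the ratio of the means of D and CK was 501. All 3 D + F libraries lay within or just above the range of the D libraries, with a log2 difference of 0.18.

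The next most abundant genes were BnaC05g41830D, BnaA04g04450D and BnaAnng18430D. BnaC05g41830D had FPKM of 51.9, 72.0 and 96.7 in CK, 548, 408 and 531 under D and 309, 616 and 783 under D + F. BnaA04g04450D had 13.6, 33.2 and 8.18 in CK, 250.3, 291 and 253 under D and 247, 341 and 263 under D + F, and its D + F 1 library fell only just below the lowest D library. BnaAnng18430D had 6.60, 4.38 and 20.7 in CK, 196, 125 and 319 under D and 152, 271 and 298 under D + F, with 1 CK library over 3 times each of the others. In all 3 genes the difference between D + F and D, 0.11, 0.09 and 0.22 on the log2 scale, was below the SD of the D + F libraries (0.70, 0.24 and 0.52).

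**Figure D3:**
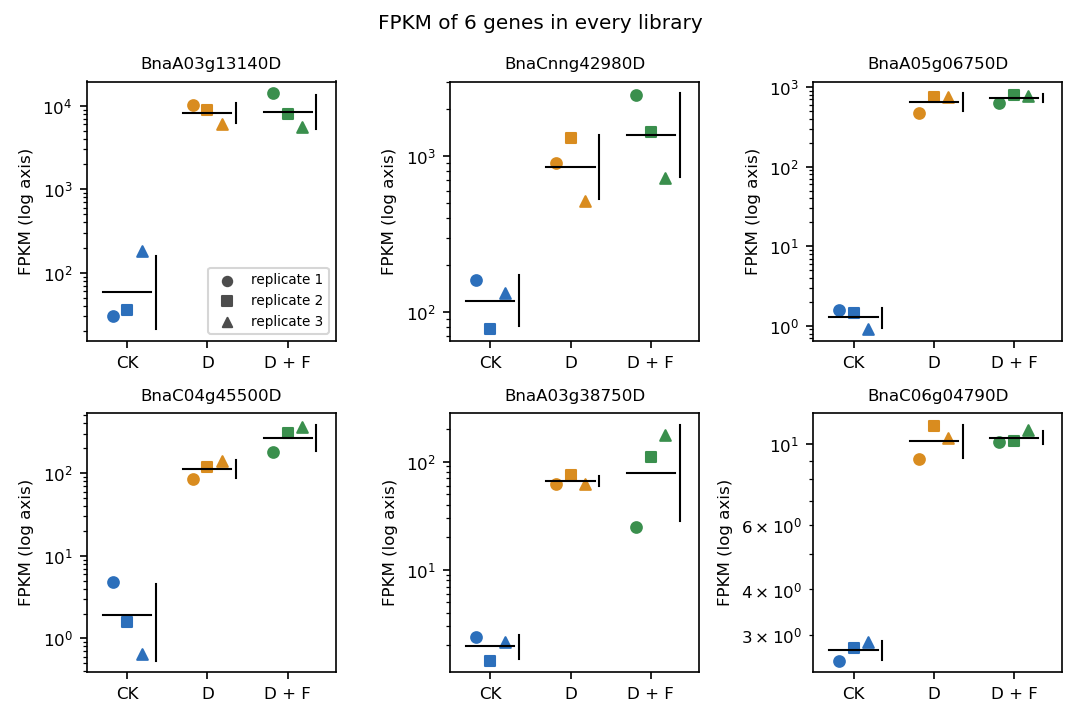
FPKM on a log axis in every library for 6 of the 54 genes. Symbols are the 3 replicates, horizontal lines are group means and vertical lines are 1 SD on either side, both computed on the log2(FPKM + 1) scale. BnaC04g45500D is the gene in which all D + F libraries lay above all D libraries by the widest difference of means, and BnaA03g38750D is the gene with the second widest spread among the D + F libraries.

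The 54 genes fell into 4 arrangements of the D + F libraries relative to the D libraries. In 7 genes all 3 D + F libraries lay above all 3 D libraries (13.0%, against 19.8% of all genes tested). In 21 genes D + F 1 lay below all D libraries and both other D + F libraries above them (38.9%, against 3.91% of all genes tested). In 4 genes D + F 1 lay below all D libraries without both others above them, and the remaining 22 showed none of these. After median-of-ratios scaling the first 2 arrangements held 6 and 15 genes, and after quantile normalization also 6 and 15. The shares over all genes tested were not computed under these scalings, and none is given here for the last 2 arrangements. Nothing is read from those counts.

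The 7 genes above D in every D + F library were BnaC04g45500D, BnaA03g58070D, BnaC01g07920D, BnaA06g18940D, BnaA03g05620D, BnaA03g40930D and BnaA07g22130D, with differences of 0.51 to 1.26 on the log2 scale and a median of 0.72. BnaC04g45500D had the largest difference of the 54 genes, with FPKM of 4.87, 1.58 and 0.655 in CK, 84.7, 117 and 141 under D and 180.0, 303 and 358 under D + F. The group means of CK, D and D + F were 2.37 ± 2.21, 114 ± 28.2 and 280.5 ± 91.3 (SD, n = 3), so that D + F was 2.45 times D. The lowest D + F library was D + F 1, as in all 7 genes, at 180.0 FPKM against 141 in the highest D library.

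BnaA03g58070D had FPKM of 3.09, 1.29 and 1.82 in CK, 133, 89.7 and 149 under D and 176, 252 and 246 under D + F. D + F 2 and D + F 3 nearly coincided in this gene, and D + F 1 lay between them and the D libraries. BnaC01g07920D, with a coding length of 141 bases, had 2.70, 1.2 and 1.62 in CK, 24.0, 18.2 and 29.2 under D and 36.1, 43.0 and 51.4 under D + F, and BnaA06g18940D had 1.14, 0.706 and 8.62 in CK, 99.0, 54.0 and 99.0 under D and 101, 145 and 164 under D + F. BnaA06g18940D had D + F 1 barely above the highest D library and 1 CK library far above the others.

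Levels were low in the other 3 of these genes. BnaA03g05620D had FPKM of 2.80, 2.40 and 2.33 in CK, 10.2, 8.59 and 8.87 under D and 11.9, 19.7 and 16.5 under D + F, and BnaA03g40930D had 1.71, 1.37 and 1.93 in CK, 7.81, 6.79 and 6.11 under D and 9.01, 12.6 and 11.3 under D + F. In these the fullerol difference was large relative to the drought rise: the return share of BnaA03g05620D, -0.463, was the lowest of the 54 genes, where the median was -0.0728, and that of BnaA03g40930D was -0.378. BnaA07g22130D, with 0.915, 1.30 and 0.797 in CK, 5.78, 6.52 and 4.94 under D and 7.85, 9.40 and 8.53 under D + F, had the lowest CK mean of the 54 genes.

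The 21 genes in which D + F 1 lay below D and the other D + F libraries above had log2 differences of 0.02 to 0.85. Among them BnaC02g26290D showed the widest spread of the D + F libraries of all 54 genes, with FPKM of 11.9, 11.7 and 18.2 in CK, 168, 80.5 and 111 under D and 57.1, 291 and 431 under D + F. Its mean difference of 0.75 on the log2 scale was smaller than the SD of 1.53 among the D + F libraries. BnaA03g38750D, next in spread with an SD of 1.45, had 2.37, 1.45 and 2.13 in CK, 62.0, 75.1 and 61.8 under D and 24.9, 111 and 177 under D + F, so that the D libraries were close together and the D + F libraries spanned several fold around them.

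BnaCnng18480D also belonged to these, with FPKM of 1.16, 1.73 and 0.208 in CK, 23.5, 10.7 and 15.1 under D and 10.6, 42.6 and 52.0 under D + F. D + F 1 was nearly level with the lowest D library, while both other D + F libraries were well above the highest. Its lowest CK value rested on 1 read, as did that of BnaA03g42880D, and BnaC08g19230D had 2 reads in its lowest CK library. BnaA03g42880D, with 4.49, 4.47 and 0.115 in CK, 76.9, 43.2 and 84.4 under D and 49.7, 180.5 and 195 under D + F, and BnaC04g33410D, with 3.32, 2.36 and 2.04 in CK, 27.2, 25.7 and 14.3 under D and 15.0, 57.0 and 62.6 under D + F, had D + F 2 and D + F 3 above all D libraries and D + F 1 inside their range. For this pair the difference between D + F and D was 0.87 and 0.79 on the log2 scale.

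The 4 genes with D + F 1 below D and not both other libraries above D were BnaA04g04450D, BnaC08g19230D, BnaA09g55530D and BnaA01g00900D. BnaA09g55530D, among the 6 largest rises under drought at 4.65 on the log2 scale, had FPKM of 1.96, 1.08 and 3.33 in CK, 127, 64.5 and 48.9 under D and 37.5, 96.0 and 144 under D + F. Both the D and the D + F libraries of this gene spread widely, and their difference of means was 0.12. In the 22 genes without these arrangements D + F and D overlapped, and 5 of them had D + F 1 as the highest D + F library. These 5 were BnaA03g13140D, BnaCnng42980D, BnaA08g30300D, BnaA03g50180D and BnaA01g06600D.

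BnaA08g30300D had FPKM of 0.743, 0.582 and 1.88 in CK, 17.3, 9.36 and 13.4 under D and 22.0, 17.9 and 16.9 under D + F, and BnaA03g50180D had 1.12, 0.893 and 1.69 in CK, 13.7, 9.08 and 19.8 under D and 25.5, 18.3 and 13.5 under D + F. In these the D + F libraries fell in the reverse order of most of the 54 genes. The tightest D + F libraries were those of BnaC06g04790D, with 2.56, 2.77 and 2.87 in CK, 9.09, 11.2 and 10.3 under D and 10.1, 10.2 and 10.9 under D + F, and BnaC06g06840D, with 0.647, 0.516 and 1.95 in CK, 42.8, 21.8 and 97.5 under D and 49.1, 52.6 and 53.5 under D + F. In BnaC06g04790D the D and D + F means, 10.2 ± 1.05 and 10.4 ± 0.423 (SD, n = 3), differed by 0.03 on the log2 scale. In BnaC06g06840D the D libraries differed by several fold and the D + F libraries all lay inside their range.

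**Figure D4:**
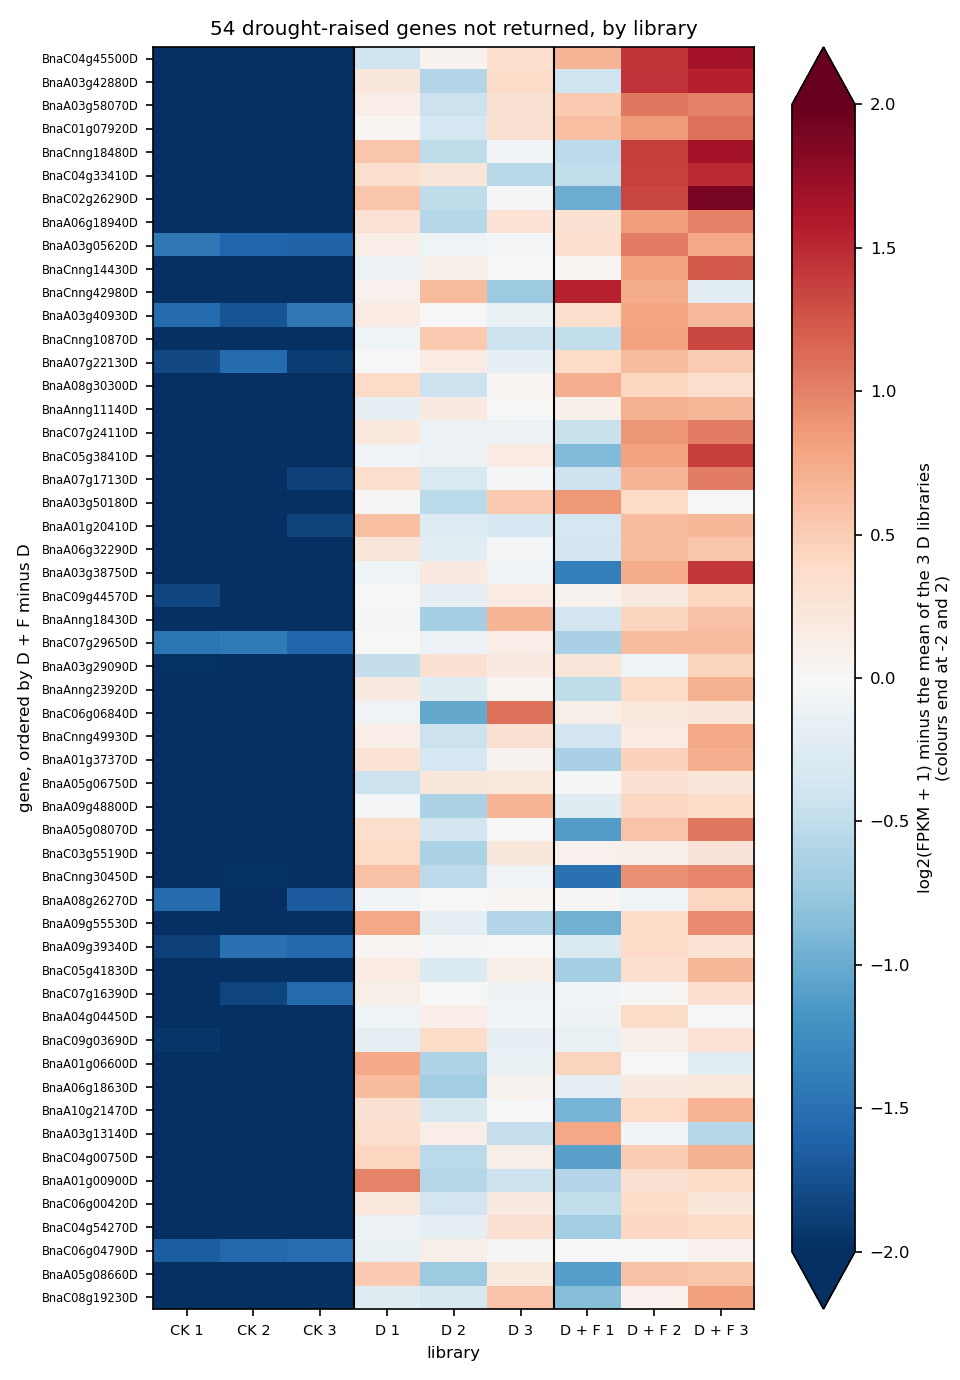
Level of each of the 54 genes in each library as log2(FPKM + 1) minus the mean of the 3 D libraries, with genes ordered by D + F minus D from 1.26 at the top to 0.01 at the bottom. CK libraries are at the blue end of the scale for most genes. In the D + F columns, replicate 1 is blue or pale in most rows and replicates 2 and 3 are red in most.

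Of the D libraries, replicate 2 was the lowest in 35 of the 54 genes (64.8%), against 52.5% of the other drought-raised genes and 42.1% of all genes tested. A low D library lowers the mean against which D + F is read. Without D 2, 37 of the 54 genes still had a return share of 0 or less and the drought conditions met, and without D + F 3 or D + F 2 the rule kept 32 and 41 of them. Without D + F 1 it kept 52 and took in others, to 85 genes or 23.0% of the 370. The other settings are shown in the plot of gene numbers.

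**Figure D5:**
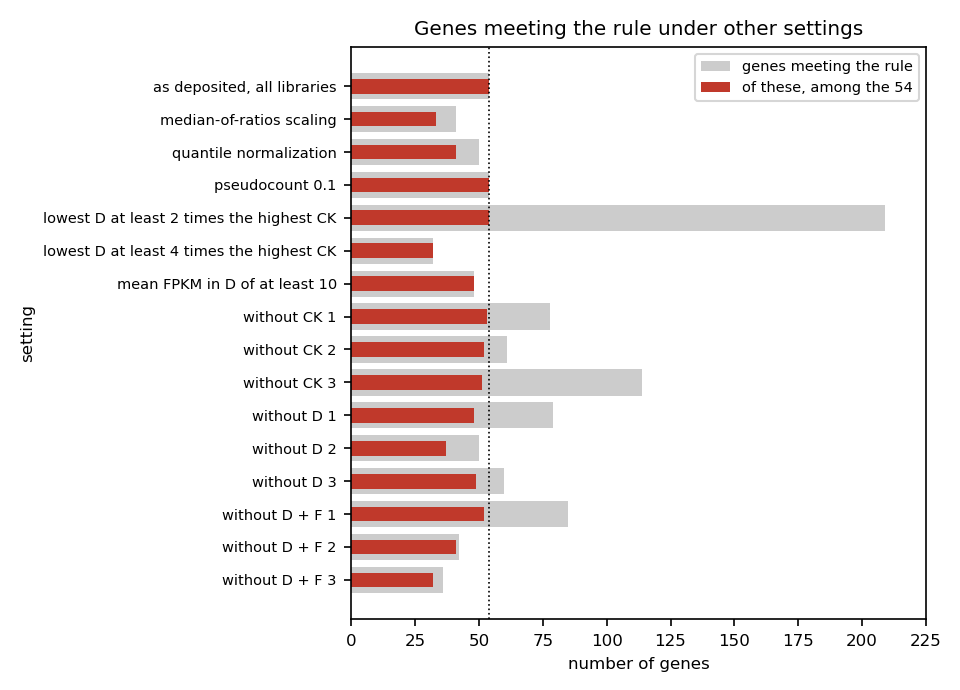
Number of genes that meet the rule under each setting (grey bars), and how many of these belong to the 54 (red bars). The dotted line is at 54. Numbers ran from 32 with a 4-fold gap between D and CK to 209 with a 2-fold gap, and from 36 to 114 when 1 library was left out.

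The same measure was then read in libraries that had not chosen the genes. The rule was applied to 2 libraries per group, and the remaining D + F library was compared with the remaining D library. Genes chosen without replicate 1 numbered 169, and in the left-out libraries their median D + F minus D was -0.55 on the log2 scale, with 37.9% above 0. Genes chosen without replicate 2 numbered 48, with a median of 0.86 and 85.4% above 0, and those chosen without replicate 3 numbered 95, with a median of 0.47 and 71.6% above 0.

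The other drought-raised genes, chosen on the same libraries, had medians of -0.45, -0.12 and -0.52. All genes tested had 0.07, 0.17 and 0.18. By median, the genes not returned thus lay above both sets in the left-out replicates 2 and 3 and below both in replicate 1. Their share above 0 was also above that of both sets in replicates 2 and 3. In replicate 1 it was 37.9%, against 35.96% in the other drought-raised genes and 58.29% over all genes tested. So in replicate 1 the order against the other drought-raised genes depended on the measure. The left-out libraries gave 3 comparisons of 1 library with 1 library, which share libraries in the choice of genes, so no test was made. Each value also depends on its D library. Among the 54 genes, D 1 was the highest D library in 50% and the lowest in 16.7%. D 2 was the lowest in 64.8% and the highest in 20.4%. Whether the D or the D + F library set the signs was not tested. The sets chosen without replicates 1, 2 and 3 held 50, 29 and 33 of the 54 genes. In D minus CK the left-out libraries kept the rise in nearly all genes not returned, with 98.8%, 100% and 100% above 0. The other drought-raised genes had 97.4%, 99.1% and 98.1%. The share over all genes tested was not computed, so nothing about the genes not returned is read from these.

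Close to the thresholds the genes on either side had like values. For the CK mean of 1 FPKM, BnaA07g22130D at 1.005 and BnaCnng18480D at 1.03 were just inside, and BnaC05g41510D at 0.982 and BnaC07g34020D at 0.974 just outside. For the D mean of 5 FPKM, BnaC07g29650D at 5.10 and BnaA07g22130D at 5.75 were the nearest inside and no gene failed on this condition alone. For the gap between the lowest D and the highest CK library, BnaA08g26270D at 3.04 and BnaA07g17130D at 3.05 times were inside, and BnaC01g01910D at 2.98 and BnaA01g28790D at 2.97 times outside.

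The condition on the return share divided genes that differed by far less than their replicates did. BnaA05g08660D, inside at a share of -0.00495, had FPKM of 1.94, 1.45 and 2.90 in CK, 38.3, 15.5 and 30.3 under D and 11.8, 40.0 and 39.0 under D + F. BnaC08g19230D was inside at -0.00506, and BnaA06g04140D and BnaC07g24030D were outside at 0.00652 and 0.00927.

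What the genes encode is known here for few of them. None of the 54 is paired with a gene name in the study's list of named genes, where 11 of the 316 other drought-raised genes are, and 2 are listed under a pathway (3.70%), against 28 of the others (8.86%). Both pathway counts are lower limits, since the copies of many of the pathway lists held here are partial. The study drew these lists from genes that changed in these libraries, so they are not independent of the levels. BnaA09g48800D is listed under glycine, serine and threonine metabolism, the pathway that interconverts these amino acids and supplies single-carbon units. Its FPKM was 1.77, 2.62 and 1.52 in CK, 16.4, 10.4 and 27.5 under D and 14.0, 22.7 and 22.0 under D + F, with the D + F libraries inside the range of D and a log2 difference of 0.18.

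Of the 28 identifiers in that pathway's list, 27 were tested. In D vs. CK, 12 were called higher and 11 lower (12.3% and 19.7% of all genes tested), with a median log2 difference of 1.05 against -0.10 over all genes tested. In D + F vs. CK, 12 were again called higher and 11 lower (8.9% and 8.16%), and in D + F vs. D none was called higher and 1 lower (0.808% and 0.338%). As the study drew the list from genes that changed in these libraries, nothing is read from these values. At an unadjusted p under 0.05 limma gave 4 of the 27 higher and 1 lower in D + F vs. D, where 14.1% and 3.49% of all genes tested were, and voom on the solved reads called 0 higher and 1 lower.

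BnaCnng30450D is listed under starch and sucrose metabolism and under amino sugar and nucleotide sugar metabolism, which convert storage and transport sugars and make the precursors of cell wall polymers. Its FPKM was 1.69, 2.11 and 0.576 in CK, 17.4, 7.49 and 10.6 under D and 3.34, 22.1 and 23.0 under D + F. D + F 1 lay far below the D libraries and the other D + F libraries above them, with a log2 difference of means of 0.13 against an SD of 1.41. The copies of these lists held here are partial, so no counts over them are given.

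Among features that the rule did not use were gene length and position. Coding lengths solved from the values had a median of 759 bases, against 717 in the other drought-raised genes and 1014 over all genes tested. Of the 54, 18 were under 400 bases (33.3%), against 16.5% of the others and 12.6% of all genes tested, and the 4 genes BnaA03g13140D, BnaCnng42980D, BnaA05g06750D and BnaC04g45500D, at 333, 333, 351 and 348 bases, were among them. Short genes collect fewer reads at a given FPKM, though the lowest D library of every one of the 54 genes held at least 32 reads. The shares by length and by chromosome are descriptions, and their differences were not tested.

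By their identifiers, 30 of the 54 genes were on the A subgenome (55.6%, against 53.2% of the other drought-raised genes and 47.1% of all Bna genes tested) and 24 on the C subgenome, and 45 named a chromosome. Chromosome A03 held 8 (14.8%, against 5.06% of the other drought-raised genes and 6.56% of all Bna genes tested), and A02 held none, where it held 2.85% of the others and 3.49% of all Bna genes tested. Of these 45 that named a chromosome, none was within 5 identifiers of another drought-raised gene. Among the other drought-raised genes 283 named a chromosome, and 22 of those were.

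Of the 1431 pairs among the 54 genes, 6 pairs had equal coding lengths (0.419%, against 0.243% of the pairs among the other drought-raised genes). BnaA01g37370D, with FPKM of 22.0, 27.0 and 32.0 in CK, 186, 119 and 159.7 under D and 97.3, 209 and 254 under D + F, and BnaAnng23920D, with 21.2, 26.5 and 31.6 in CK, 163, 121 and 149.5 under D and 101, 187 and 236 under D + F, both 1116 bases long, had nearly the same level in every library. So did BnaA06g32290D, with 6.98, 9.39 and 15.0 in CK, 192, 139 and 159 under D and 124, 253 and 239.7 under D + F, and BnaC07g24110D, with 8.18, 10.9 and 15.5 in CK, 198, 158 and 160.1 under D and 126, 314 and 349.9 under D + F, both 849 bases long. In both pairs D + F 1 was below all D libraries and the other D + F libraries above, and each pair may count as 1 observation if its members share reads.

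The pair BnaA06g18630D and BnaC03g55190D, both 879 bases long, differed in level. Their FPKM was 184, 73.8 and 125 and 40.2, 19.1 and 35.4 in D, and 105, 135 and 138 and 32.2, 32.5 and 36.3 in D + F. In both genes the D + F libraries lay inside the range of the D libraries. BnaAnng18430D and BnaC02g26290D, both 231 bases long, had D + F 1 as the lowest D + F library in common. The sixth pair, BnaA01g06600D and BnaA08g26270D at 495 bases, moved differently: BnaA01g06600D had 31.0, 22.3 and 19.3 in D + F and BnaA08g26270D 21.5, 19.9 and 28.9.

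The choice of scaling bore on the condition that set the genes apart, since D + F minus D was close to 0 in many. Median-of-ratios scaling moved the median D + F minus D of all genes tested from 0.14 to 0.01, and that of the 54 genes from 0.20 to 0.05. Relative to the median of all genes the 54 thus stood 0.06 higher as deposited and 0.04 higher after scaling, and 35 of the 54 kept a difference of 0 or more. After quantile normalization the medians were 0.18 for the 54 genes and -0.0021 for all genes tested, a difference of 0.18, and 42 of the 54 did. The rise over CK kept its direction in all 54 genes under both scalings. With the rule's gap of at least 3 times between D and CK it could hardly do otherwise, so nothing is read from this.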

How the data were processed

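RNA-seq of 9 leaf libraries was deposited as 1 table of 104592 genes per library. The values are FPKM, which the authors computed from HTSeq read counts per gene. Their methods state that reads were cleaned first and mapped with TopHat to a *B. napus* reference, while the submitters' processing notes name Bowtie 0.12.2 and mm8, a mouse build. The Bna identifiers are *B. napus* gene models. The number of genes above 1 FPKM, 46123 to 48924 per library, equals the number the paper gives for each library. The values are therefore those of the paper's mapping, and why the notes differ is not known. Whole reads, coding lengths and library totals were solved from the digits of the values for 76351 of the 76352 genes above 0 (tolerance 0.02 reads).

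Genes above 1 FPKM in at least 3 libraries, 50626 in all, were tested with limma 3.58.1 (R 4.3.3) on log2(FPKM + 1), which understates the change of low genes. The 3 comparisons had separate fits, with a mean-variance trend and a Benjamini-Hochberg adjusted p under 0.05 as the threshold. Tested on simulated data for D + F vs. D over 50626 genes, this called 168 of 200 genes changed by 2 on the log2 scale, and 8 others. The changes were placed in the more abundant genes only, with noise independent between genes. They were larger than the largest D + F minus D of the 54 genes, 1.26, so the recovery does not carry over to these. Other steps ran in Python 3.11.15 with pandas 2.3.3, numpy 2.4.6 and matplotlib 3.10.9.

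The rule, the 54 genes and the lists were chosen with earlier results of these data known. Genes were named where they were listed under a pathway, were among the 6 with the highest level in D, the largest rise or the largest D + F minus D, lay next to a threshold, or had the 2 widest or 2 narrowest spreads in D + F. Genes named as examples of an arrangement of libraries or for equal length were chosen after their values were seen. The alternatives were median-of-ratios scaling (factors 0.905 to 1.134 over 39770 genes), quantile normalization, a pseudocount of 0.1, other filters and folds, a joint fit of the 9 libraries, a replicate block, limma with no trend, voom on the solved reads, and leaving out each library. No identifier occurs in the reference gene table, so no position, name or sequence was taken from it.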

Additional observations from a re-analysis of the deposited data

How the results depend on the processing

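The rise of the 54 genes over CK was held in place by the rule's gap of at least 3 times, so its steadiness across settings is not a result. The number of genes not returned depended on the settings. It was 41 under median-of-ratios scaling (9.19% of 446 drought-raised genes), of which 33 were among the 54, and 50 under quantile normalization, of which 41 were. A gap of 2 or 4 times between D and CK gave 209 of 1013 (20.6%) and 32 of 213. Leaving out 1 library gave 36 to 114 genes, or 9.73% to 23.0%, from 370 to 527 drought-raised genes. The highest number was without CK 3 (114, of which 51 were among the 54; 21.6%), followed by 85 without D + F 1. Dropping D + F 1, 2 or 3 after median-of-ratios scaling, an alternative added after seeing the data, gave 70, 33 and 35 genes (15.7%, 7.40% and 7.85%). The median D minus CK of the 54 genes was 3.05 with a pseudocount of 0.1, and 2.68 to 2.90 without 1 library. Their median D + F minus D was 0.11 to 0.56 without 1 library.

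The calls across all genes in D + F vs. D were the least stable: 580 became 22 without a filter, 297 with a mean FPKM of at least 5, and 0 to 576 without 1 library, namely 2, 11 and 179 when D 1, D 2 or D 3 was dropped, and 0 and 30 when D + F 2 or D + F 3 was. A replicate block gave D + F vs. D 1 call, D + F vs. CK 11060 and D vs. CK 11986. Deviations of same-numbered libraries correlated at -0.191 to 0.221 between D + F and D, at 0.053 to 0.306 between D + F and CK, and at -0.291 to 0.058 between D and CK. In D + F vs. CK every sample correlated best with its own number, which is a hint from the data and not from the design. Not every pair was over 0.1 in any comparison, so the numbers were not taken to pair the samples. D vs. CK gave 16209 calls, and 10006 to 17377 without 1 library, the fewest without CK 2, with 10288 without D 3. D + F vs. CK gave 8641, and 3125 to 9591 without 1 library, with 3125 without D + F 2, 3228 without CK 2 and 4194 without D + F 3. All 54 genes stayed called in D vs. CK wherever they were tested, 50 to 54 did in D + F vs. CK, and none was called in D + F vs. D under any setting, where the smallest adjusted p ran from 0.0503 to 0.293. In the main fits 12.3%, 8.9% and 0.808% of all genes tested were called higher in these comparisons. As the rule chose the 54 genes on these same libraries, nothing is read from these counts.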

Other observations

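The tables also list 3552 loci outside the Bna gene models. Of these, 18 met the 3 conditions on drought and 4 were not returned. Novel03089 had FPKM of 1.78, 4.52 and 3.26 in CK, 212.5, 143 and 376 in D and 127, 284 and 412 in D + F. Novel00500 had 12.2, 12.5 and 11.5 in CK, 176, 109 and 146 in D and 78.3, 217 and 259.6 in D + F. In both loci D + F 1 lay below all D libraries, and the other D + F libraries lay above at least 2 of the D libraries. Novel00803 and Novel02925 were lower, at 10.6 and 8.38 FPKM in D + F against 10.3 and 5.85 in D.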
